A study of Mus musculus with 6 samples.

Results

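The genes described here encode the proteins of the mitochondrial ribosome in mouse bone marrow-derived macrophages. They were taken by name, as every gene of the deposited expression table with a symbol of the Mrpl series (large subunit) or the Mrps series (small subunit) followed by a number. The rule used no measured value. It found 76 of the 38087 genes in the table, and all 76 were above 0 in at least 3 libraries and were therefore among the 18899 genes tested. By the systematic names of the ribosome field, 26 of them belong to the small subunit and 49 to the large subunit. The remaining gene, Mrps36, is now assigned to the 2-oxoglutarate dehydrogenase complex (Kgd4) and was kept because its symbol fits the rule. The mRNA of these 76 genes made up 0.201%, 0.189% and 0.186% of all normalized reads in the 3 RvD1 libraries, against 0.207%, 0.205% and 0.198% in the 3 untreated libraries.

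The mitochondrial ribosome translates the mRNAs of mitochondrial DNA, which encode core subunits of the respiratory chain and of ATP synthase. Its rRNAs come from mitochondrial DNA, but all of its proteins are encoded in the nucleus, made in the cytosol and imported. Some are homologues of bacterial ribosomal proteins and surround the decoding and peptidyl transferase centres, and others exist only in mitochondrial ribosomes and cover the outer surface. Macrophages are known to shift between respiration and glycolysis when activated.

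Resolvin D1 (RvD1) is a lipid mediator made from docosahexaenoic acid that is studied for its part in the resolution of inflammation. The treated group was 3 libraries of macrophages exposed to 10 nM RvD1 for 6 h, and the other group was 3 libraries of untreated macrophages. All 6 were grown from the marrow of C57BL/6J males, 8 to 10 weeks old, over 7 days with 10 ng/ml M-CSF and a further 24 h without it. Poly-A RNA was sequenced, and the series is on the receptor ALX/FPR2 in myeloid cells during limb ischemia. Whether a group's 3 libraries were separate animals or cultures is not stated in the labels. The p-values therefore rest on the spread between these 6 libraries, which may be technical.

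The estimated depth was 16.3, 11.2 and 12.8 M reads in the RvD1 libraries and 10.2, 14.3 and 9.06 M reads in the untreated ones. At that depth each member had between 65.2 and 896 estimated reads in a library. All 8 macrophage markers were present, with summed levels of 16.65 to 17.01 in RvD1 libraries and 16.59 to 16.97 in untreated libraries on the log2 scale, and the T cell marker Cd3e was at 0 in all 6 libraries. Cd3d, another T cell marker, was at 0.00, 0.00 and 0.99 in RvD1 libraries, against 0.00, 0.00 and 0.00 in untreated libraries, and the B cell marker Cd79a at 0.61, 0.00 and 0.00 in RvD1 libraries, against 1.61, 0.00 and 0.86 in untreated libraries. The 6 markers of neutrophils and their precursors summed to 11.44, 11.99 and 12.79 in RvD1 libraries, against 11.01, 11.70 and 12.85 in untreated libraries. The 4 fibroblast and stroma markers were present in every library, with summed levels of 14.89 to 15.42 in RvD1 libraries and 15.06 to 15.27 in untreated libraries. The 3 endothelial markers summed to 10.18, 8.69 and 9.20 in RvD1 libraries, against 9.04, 8.32 and 8.66 in untreated libraries. The part of these other cells in the values below was not tested. In bulk RNA, fewer cells of a type and less RNA per cell cannot be told apart.

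RefSeq promoter windows (GRCm38.p6, from 250 bases before to 50 bases after a start site) were found for 67 of the 76 members. They were searched on both strands for the letters of 3 factors known to act on nuclear genes for mitochondrial proteins. The NRF1 letters, GCGC followed by any base, T and GCGC again, were in 12 of 67 windows (17.9%), against 4.78% of all 27025 windows. The ETS letters CCGGAAG, which the factor GABPA reads, were in 23 (34.3%), against 9.12% of all windows. The YY1 letters AAGATGGC were in 12 (17.9%), against 2.88% of all windows. At least 1 of the 3 was in 40 windows (59.7%), against 15.2% of all windows. These matches are a description of the letters and no measure of binding. The 3 stretches printed here lie before start sites, without bases that an annotated exon covers. They were chosen because they belong to the member that passed the test (Mrpl2), to a member with one of the lowest p-values (Mrps27) and to a stalk protein with an NRF1 match (Mrpl12). Capitals mark a match, and the Mrpl2 stretch, chr17:46646023-46646220 on the + strand, holds none of the 3. The Mrps27 stretch is chr13:99344706-99344785 on the + strand and holds the ETS letters on the reverse strand. The Mrpl12 stretch is chr11:120484387-120484612 on the + strand and holds the NRF1 letters.
Mrpl2: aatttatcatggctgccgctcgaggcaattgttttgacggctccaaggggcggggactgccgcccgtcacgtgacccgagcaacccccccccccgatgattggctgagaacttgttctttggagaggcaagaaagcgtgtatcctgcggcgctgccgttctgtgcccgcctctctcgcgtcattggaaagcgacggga
Mrps27: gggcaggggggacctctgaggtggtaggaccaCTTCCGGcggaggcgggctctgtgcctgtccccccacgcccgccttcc
Mrpl12: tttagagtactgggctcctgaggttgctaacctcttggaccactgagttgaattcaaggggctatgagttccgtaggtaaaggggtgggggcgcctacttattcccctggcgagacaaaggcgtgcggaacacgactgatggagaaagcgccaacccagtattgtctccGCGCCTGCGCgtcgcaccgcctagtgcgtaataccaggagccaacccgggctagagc

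The side of the start site on which the letters lay was counted for each factor. YY1 letters lay after the start site in 8 of 12 members, whereas NRF1 letters lay before it in 11 of 12 and ETS letters before it in 17 of 23. The 4 YY1 sites printed here are those of the 8 after start sites that belong to genes described below. The NRF1 sites are 2 examples that match on the reverse strand and differ at the variable base. The YY1 sites are at chr11:115604149-115604174 (+) for Mrps7, chr17:46111006-46111031 (+) for Mrps18a, chr13:99344791-99344816 (+) for Mrps27 and chr11:5707652-5707674 (-) for Mrps24. The NRF1 sites are at chr1:79775975-79776000 (+) for Mrpl44 and chr11:97315588-97315613 (+) for Mrpl45. Capitals again mark the match, and the bases read 5′ to 3′ on the gene's strand.
Mrps7: acagcggccAAGATGGCtgcccccgc
Mrps18a: gtgcgttccAAGATGGCggccctcag
Mrps27: gtgcgctccAAGATGGCggctcccat
Mrps24: cgccggcccAAGATGGCgtggtc
Mrpl44: aagcacttGCGCACGCGCagtacact
Mrpl45: agcctcctGCGCAGGCGCagctggct

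The comparison of RvD1-treated with untreated macrophages gave little change in these genes. With limma and Benjamini-Hochberg adjustment over all genes tested, 1 of 76 members (1.32%) passed at an adjusted p under 0.05, against 211 of 18899 genes tested (1.12%) and 1.2% of the 6574 genes at the same level range (a mean log2 level between 6.44 and 9.34, the lowest and highest of the members). That gene, Mrpl2, fell in RvD1-treated cells (0.556% of all genes did), and 0 members rose (0.561% of all genes did). At an unadjusted p under 0.05, 15 members (19.7%) were counted, against 19.9% of all genes tested. Both shares of members were near those of all genes, so neither count sets these genes apart. No member differed by 1.5-fold or more, against 8.37% of all genes tested, and 5 differed by 1.25-fold or more (6.58%), against 22.5% of all genes and 9.93% of genes at that level range. For 73 of 76 members (96.1%) the 95% interval lay within a 1.5-fold change in either direction, against 60.4% of all genes and 88.6% at that level range. The exceptions were Mrpl14, Mrps12 and Mrps34.

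More members had lower than higher values. The fold change was below 0 for 55 of 76 members (72.4%), against 49.2% of all genes tested and 50.1% of genes at the same level range. The median log2 fold change of the members was -0.07, with quartiles of -0.17 and 0.03 and a range of -0.52 to 0.21, against a median of 0.00 over all genes. Of the 15 members at an unadjusted p under 0.05, 13 were lower in RvD1-treated cells (17.1%, against 9.65% of all genes) and 2 were higher (2.63%, against 10.3%). Without RvD1 replicate 1, 2 or 3 the lower ones numbered 20, 8 and 9 and the higher ones 1, 1 and 0. The share of all genes at that unadjusted p, in either direction, was then 21.8%, 13.9% and 16.9%. Without untreated replicate 1, 2 or 3 the lower ones numbered 12, 7 and 12 and the higher ones 0, 2 and 0. The share of all genes was then 18.2%, 14.5% and 16.1%. The 3 RvD1 and the 3 untreated values did not overlap for 21 members (27.6%, against 25.4% of all genes), 18 of them lower (23.7%, against 12.8%) and 3 higher (3.95%, against 12.6%) in RvD1-treated cells. The 3 higher ones were Mrps5, Mrpl1 and Mrps31, the last named after its values were seen.

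**Figure D1:**
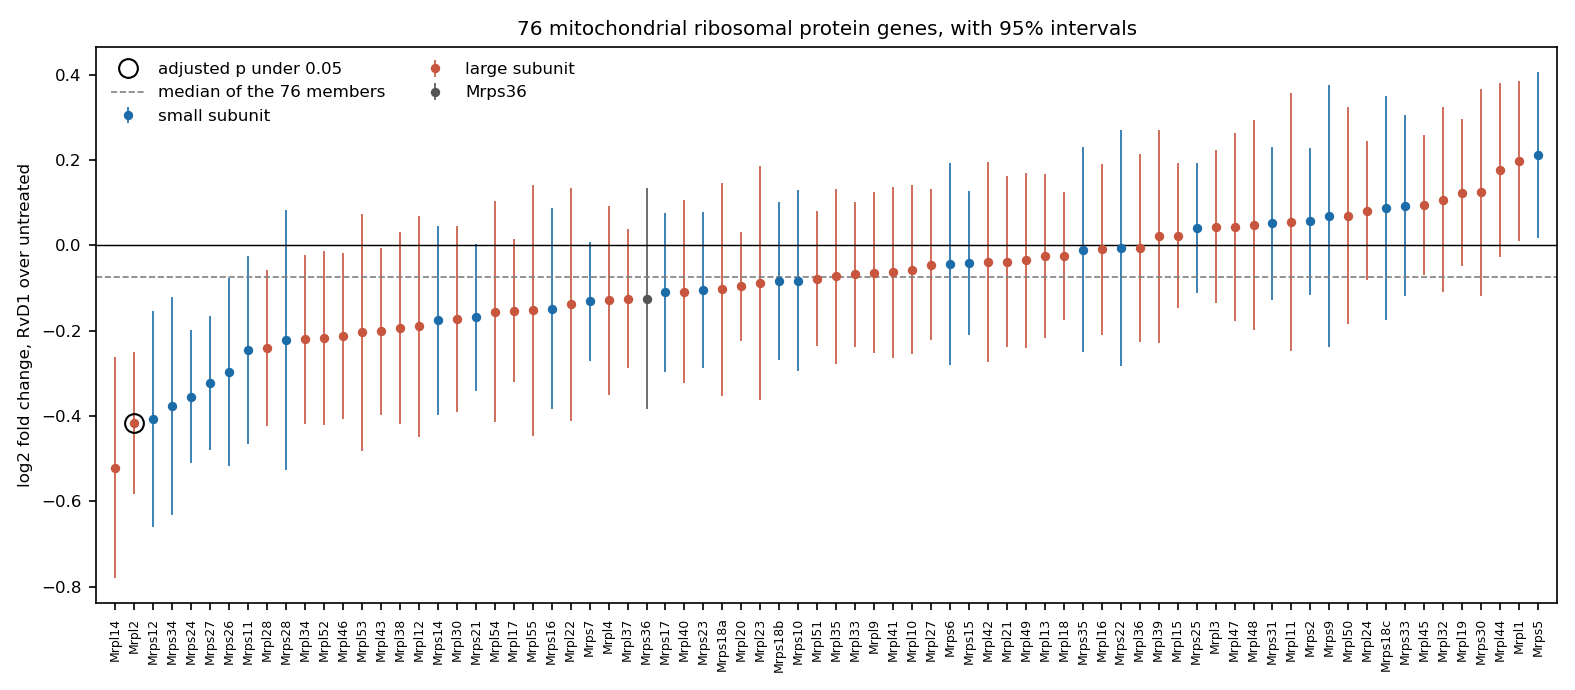
Log2 fold change of RvD1-treated over untreated macrophages for each of the 76 genes, in order, with 95% intervals from limma (3 libraries each). Points below 0 are lower in RvD1-treated cells; Mrpl2, circled, was the 1 gene past an adjusted p of 0.05, and the dashed line is the members' median of -0.07.

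The lower values were spread over both subunits. The median log2 fold change was -0.09 over the 26 small-subunit genes, of which 19 had lower values, and -0.06 over the 49 large-subunit genes, of which 35 had lower values. It was -0.07 over the 46 genes with a bacterial homologue and -0.08 over the 29 that exist only in mitochondrial ribosomes. By library, the median of the members lay 0.01 above the genes' own means and then 0.03 and 0.07 below them in RvD1 libraries 1, 2 and 3. It lay 0.04, 0.05 and 0.03 above them in the untreated libraries. RvD1 replicate 1 was therefore the treated library closest to the untreated ones.

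Mrpl2 (ENSMUSG00000002767, chr17:46646229-46650139 on the + strand of mm10) encodes uL2m, a conserved protein of the large subunit that lies beside the peptidyl transferase centre. Its level was 8.63, 8.56 and 8.49 in RvD1 libraries, against 8.88, 8.997 and 9.05 in untreated libraries on the log2 scale of normalized reads. Every RvD1 library lay below every untreated one. The log2 fold change was -0.42 (95% interval -0.58 to -0.25; limma, Benjamini-Hochberg adjusted p = 0.0436; n = 3 each), a level of 0.749 times that in untreated cells. After correction of every library for transcript length and GC content the change was -0.25 with an adjusted p of 0.233. Without RvD1 replicate 1 the adjusted p was 0.0414, and without RvD1 replicate 2, RvD1 replicate 3, or untreated replicate 1, 2 or 3 it was 0.164, 0.134, 0.0937, 0.168 and 0.138. The gene's start lies 207 bases from that of Klc4, a kinesin light chain gene on the other strand, whose log2 fold change was -0.04 (adjusted p = 0.87).

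In the small subunit, proteins of the mRNA path and the decoding site had both lower and higher values. Mrps24 encodes uS3m, a protein at the entry of the mRNA channel, and had 8.15, 8.05 and 8.13 in RvD1 libraries, against 8.45, 8.49 and 8.47 in untreated libraries (log2 fold change -0.36; adjusted p = 0.0534). It shares 226 exon bases on the same strand with Urgcp, which had a log2 fold change of -0.13. Mrps12, for the decoding-site protein uS12m, had 7.76, 7.51 and 7.54 in RvD1 libraries, against 8.15, 8.05 and 7.83 in untreated libraries (-0.41; adjusted p = 0.102). Neither passed the limma test, although the libraries of the 2 groups did not overlap for either gene. Mrps5 encodes uS5m, a protein at the mRNA entry that is known to bear on decoding accuracy, and had 8.19, 7.99 and 8.12 in RvD1 libraries, against 7.88, 7.97 and 7.82 in untreated libraries (0.21; adjusted p = 0.214). It had the highest fold change of the 76 genes as deposited, in the direction opposite to Mrps24 and Mrps12, but after the length and GC correction it was at 0.12 and Mrpl44 was highest at 0.23. Mrps7, for uS7m, which binds the small rRNA early in assembly, had 9.11, 9.11 and 9.11 in RvD1 libraries, against 9.28, 9.29 and 9.16 in untreated libraries (-0.13; adjusted p = 0.276). Its 3 RvD1 libraries were almost equal and lay below the untreated ones.

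Small-subunit proteins without a bacterial homologue gave 3 of the 7 smallest p-values. Mrps27 encodes a pentatricopeptide repeat protein, a class that binds RNA, and had 8.06, 8.03 and 8.00 in RvD1 libraries, against 8.37, 8.38 and 8.30 in untreated libraries. Its log2 fold change was -0.32 with an adjusted p of 0.0652, just outside the test. Mrps34, whose protein is known to keep the small rRNA stable, had 7.46, 7.23 and 7.53 in RvD1 libraries, against 7.64, 7.80 and 7.91 in untreated libraries (-0.38; adjusted p = 0.121). Its exons share 1309 bases with Mapk8ip3 on the opposite strand (log2 fold change -0.28; adjusted p = 0.0609) and 763 bases with Nme3 on the same strand. The strand setting of the authors' counting is not given in the sources used here, so reads of such overlapping genes cannot be told apart. Mrps26, for another protein found only in mitochondrial ribosomes, had 8.42, 8.19 and 8.10 in RvD1 libraries, against 8.45, 8.63 and 8.51 in untreated libraries (-0.30; adjusted p = 0.146). Unlike these, Mrps28 encodes a small-subunit protein with a bacterial homologue, bS1m. It had 7.65, 7.26 and 7.37 in RvD1 libraries, against 7.47, 7.84 and 7.63 in untreated libraries (-0.22; adjusted p = 0.403), and its groups overlapped.

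**Figure D2:**
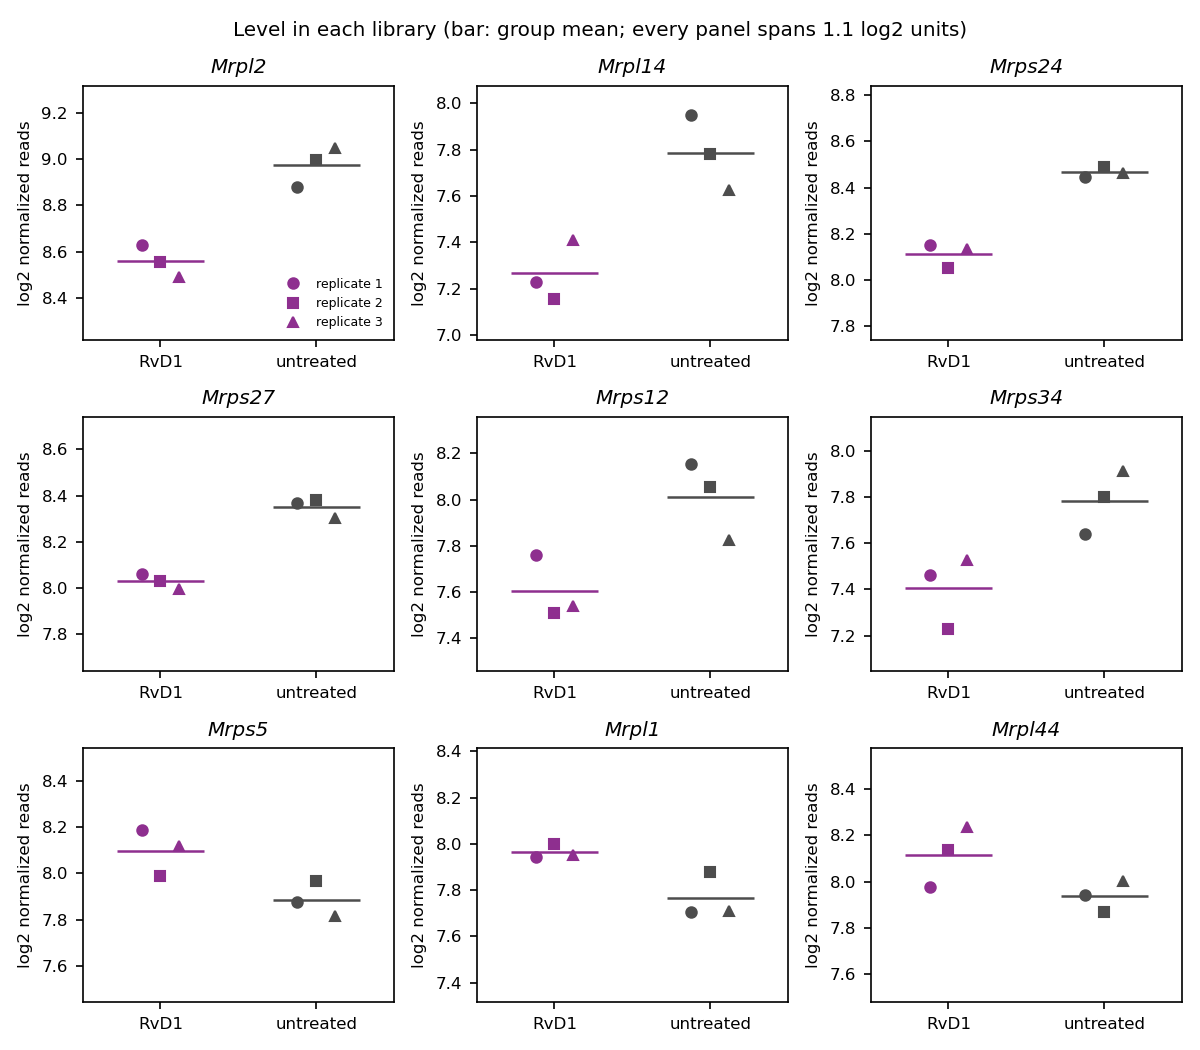
Level of 9 genes in each library (log2 normalized reads; symbols give the replicate number, bars the mean of 3 libraries), RvD1-treated left and untreated right. The first 6 genes had lower values in RvD1-treated cells, with no overlap between groups, and Mrps5, Mrpl1 and Mrpl44 had higher ones, with an overlap for Mrpl44.

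In the large subunit, the lowest fold change as deposited belonged to Mrpl14, for uL14m, which sits at the face that meets the small subunit. It had 7.23, 7.16 and 7.41 in RvD1 libraries, against 7.95, 7.78 and 7.63 in untreated libraries (-0.52; 95% interval -0.78 to -0.26; adjusted p = 0.0677). With length and GC content corrected for, Mrpl14 was at -0.31 and Mrpl17 was lower, at -0.35. Mrpl14 shares 106 exon bases on the opposite strand with Tmem63b, which did pass the limma test with a log2 fold change of -0.37 and an adjusted p of 0.0372. Mrpl28, one of the most abundant members, had 9.14, 8.94 and 8.90 in RvD1 libraries, against 9.31, 9.23 and 9.17 in untreated libraries (-0.24; adjusted p = 0.152), and its log2 fold change after the correction was -0.06. Mrpl20, for a protein that binds the large rRNA early in assembly, had 9.32, 9.30 and 9.24 in RvD1 libraries, against 9.40, 9.37 and 9.39 in untreated libraries, so its groups did not overlap although they differed by only -0.10 on the log2 scale (adjusted p = 0.386). A further 3 genes of the large subunit had values on the higher side. Mrpl19, for an intersubunit bridge protein, had a log2 fold change of 0.12 (adjusted p = 0.407). Mrpl24, for a protein beside the exit tunnel, had 0.08 (adjusted p = 0.572). Mrpl32, whose protein is matured by the mitochondrial m-AAA protease, had 0.11 (adjusted p = 0.579). None of the 3 passed, and the libraries of the 2 groups overlapped for each.

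The stalk proteins, which receive tRNAs and translation factors, had values on both sides, and those of Mrpl1 and Mrpl12 were 0.05 and -0.05 after the length and GC correction. Mrpl1, for uL1m of the stalk at the tRNA exit site, had 7.94, 8.00 and 7.95 in RvD1 libraries, against 7.71, 7.88 and 7.71 in untreated libraries (0.20; adjusted p = 0.228). Mrpl12, for bL12m of the stalk that recruits translation factors, had 9.42, 8.998 and 9.10 in RvD1 libraries, against 9.49, 9.37 and 9.23 in untreated libraries (-0.19; adjusted p = 0.397). The base of that stalk is made of uL10m and uL11m. Their genes had log2 fold changes of -0.06 for Mrpl10 (adjusted p = 0.769) and 0.05 for Mrpl11 (adjusted p = 0.857). For Mrpl12, Mrpl10 and Mrpl11 the libraries of the 2 groups overlapped.

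Mrpl44 and Mrpl45 belong to the 19 large-subunit genes without a bacterial homologue, of which 13 had lower values (median log2 fold change -0.08). Mrpl44 carries a ribonuclease III fold, and had 7.98, 8.14 and 8.24 in RvD1 libraries, against 7.94, 7.87 and 8.00 in untreated libraries (0.18; adjusted p = 0.319). Mrpl45, which holds the ribosome to the inner membrane near the polypeptide exit, had 8.60, 8.55 and 8.66 in RvD1 libraries, against 8.46, 8.60 and 8.46 in untreated libraries (0.10; adjusted p = 0.51). Both sets of libraries overlapped between the groups. Mrps30, named for the small subunit and now placed in the large one as mL65, had 8.31, 8.13 and 8.23 in RvD1 libraries, against 8.07, 8.30 and 7.93 in untreated libraries (0.12; adjusted p = 0.562).

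The 3 Mrps18 genes are paralogues whose proteins sit at different sites. Mrps18a, now placed in the large subunit as mL66, had a log2 fold change of -0.10 (95% interval -0.35 to 0.15). Mrps18b, for mS40 of the small subunit, had -0.08 (-0.27 to 0.10). Mrps18c, for bS18m, which takes the place of the bacterial protein, had 0.09 (-0.17 to 0.35). All 3 intervals include 0, and the differences between the 3 genes were not tested. Mrps36, the gene of the 2-oxoglutarate dehydrogenase complex, had 6.48, 6.50 and 6.32 in RvD1 libraries, against 6.60, 6.50 and 6.58 in untreated libraries (-0.12; adjusted p = 0.589). Its highest RvD1 library and lowest untreated library were equal to 2 decimals. The table also lists the pseudogenes Mrps36-ps1, Mrps36-ps2, Mrpl23-ps1 and Mrpl48-ps. Mrpl23-ps1 stood at 7.96 to 8.06 in RvD1 libraries and 8.08 to 8.23 in untreated libraries, above Mrpl23 itself at 6.61 to 6.74 and 6.57 to 6.87. How reads were shared between these copies is not given in the sources used here, so the levels of Mrpl23, Mrpl48 and Mrps36 are uncertain.

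Levels of different genes were compared per kb of the longest annotated transcript. The genes were well expressed, with 70 of 76 above the median level of all genes tested. On the log2 scale of normalized reads per kb, the highest were Mrpl20 at 9.64, Mrps21 at 9.33, Mrpl28 at 8.93, Mrpl12 at 8.87 and Mrps15 at 8.80. Mrps21 and Mrps15 encode the small-subunit proteins bS21m and uS15m. The lowest were Mrpl23 at 4.83, Mrps35 at 5.11, Mrpl48 at 5.28, Mrps10 at 5.78 and Mrps5 at 5.83. The highest and lowest levels differed by 28.2-fold, or by 23.2-fold without Mrpl23, Mrpl48 and Mrps36, whose levels are uncertain. The quartiles (6.39 and 8.16) differed by 3.41-fold. The longest transcript need not be the one that macrophages use, which lowers the value of genes with long annotated forms.

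**Figure D3:**
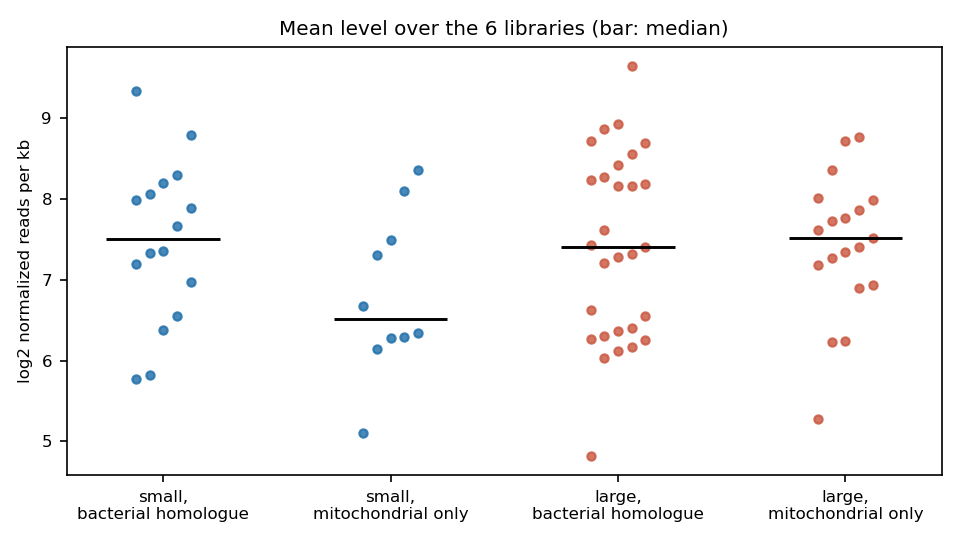
Mean level over the 6 libraries of the small- and large-subunit genes (log2 normalized reads per kb of the longest transcript), split by whether the protein has a bacterial homologue; bars are medians. The 4 groups overlap, and the medians are 7.51 for small-subunit genes with a homologue, 6.51 for small-subunit genes without one, 7.41 for large-subunit genes with one and 7.52 for those without.

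The fold changes of the members followed the GC content and length of their transcripts, and so did those of other genes. Over the 75 members with an annotated transcript, Spearman's rho of the log2 fold change was -0.64 with GC content and 0.45 with length. Over 13024 genes with a mean level of at least 5 the same values were -0.57 and 0.35. These are descriptions across genes of the same 6 libraries, and genes are not independent replicates. All 15 members with at least 55% GC had lower values in RvD1-treated cells, with a median log2 fold change of -0.22, against -0.14 over the 3997 genes tested with that GC content. Of those 3997 genes, 3100 had lower values. The 19 members under 45% GC had a median of -0.01, against 0.14 over 4609 genes. From 45% to 50% GC, 20 members had a median of 0.03, against 0.05 over 4994 genes. From 50% to 55%, 21 members had -0.11, against -0.05 over 4949 genes. The median GC content was 49.9% over the members and 49.7% over all genes tested. The median length was 1764 bases over the members and 2759 bases over all genes tested. Of 41 members under 2000 bases, 37 had lower values, against 17 of 34 at 2000 bases or more. Mrpl2, Mrpl14, Mrps12, Mrps34, Mrps24 and Mrpl28 had 55% GC or more, but Mrps27 and Mrps26, also lower, had 52.2% and 49.2%. On the higher side, Mrps5 and Mrpl1 had 46.9% and 41.6%, and Mrpl44 had 52.0%.

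**Figure D4:**
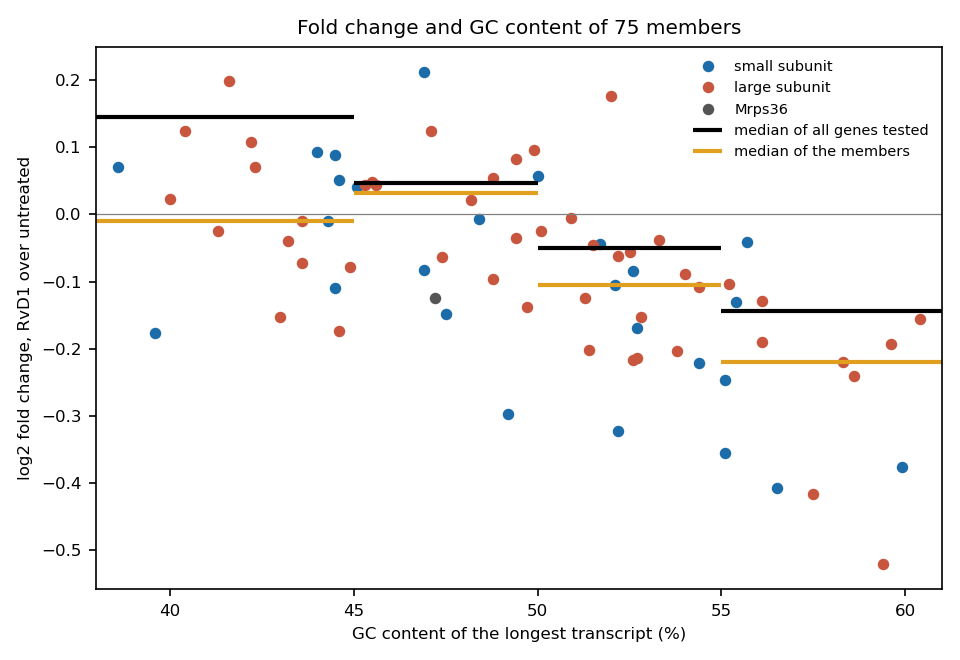
Log2 fold change of RvD1-treated over untreated macrophages against the GC content of the longest transcript, for 75 members. Gold bars are medians of the members and black bars medians of all genes tested in 4 ranges of GC content; all 15 members at 55% GC or more lie below 0, and both sets of medians are lowest there.

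Libraries were also compared with one another. For members with at least 55% GC, the median deviation from each gene's mean over the 6 libraries was -0.05, -0.24 and -0.08 in RvD1 libraries 1, 2 and 3, against 0.14, 0.16 and 0.05 in untreated libraries. For all genes with that GC content it was -0.02, -0.16 and -0.04 in RvD1 libraries, against 0.05, 0.10 and 0.09 in untreated libraries. RvD1 replicate 2 was the lowest in both sets. Over all genes the median fell across the 4 ranges of GC content in RvD1 replicates 1, 2 and 3, with the lowest value in the highest range. In untreated replicates 1, 2 and 3 it rose, from -0.05, -0.08 and -0.08 in the lowest range to 0.05, 0.10 and 0.09 in the highest. Over the members the median fell in this order in RvD1 replicate 2 and rose in untreated replicate 2, without such an order in the other 4 libraries. In RvD1 replicate 3 it was -0.04, -0.11, -0.06 and -0.08 from the lowest to the highest range, against 0.03, 0.04, 0.00 and 0.14 in untreated replicate 1. The correction for length and GC content was fitted to each library without treatment in the model. It therefore also takes out any treatment difference that follows GC content or length, which cannot be told apart here from a technical one. After this correction, 0 of 75 members passed the limma test at an adjusted p under 0.05, against 30 of 18549 genes (0.162%). At an unadjusted p under 0.05, 12 members were then lower (16.0%, against 7.4% of all genes) and 1 was higher (1.33%, against 4.73%). The median of the members was then -0.05, against -0.01 over all genes. Lower values were then found for 54 of 75 members, and the matching share of all genes was not counted. Among the other genes with the lowest p-values, the corrected log2 fold changes were -0.22 for Mrps24, -0.26 for Mrps27, -0.25 for Mrps12, -0.19 for Mrps34 and -0.35 for Mrps26. The smallest p after the correction belonged to Mrpl17, named after its values were seen, with a log2 fold change of -0.35 after and -0.15 before it (adjusted p = 0.119 after it).

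**Figure D5:**
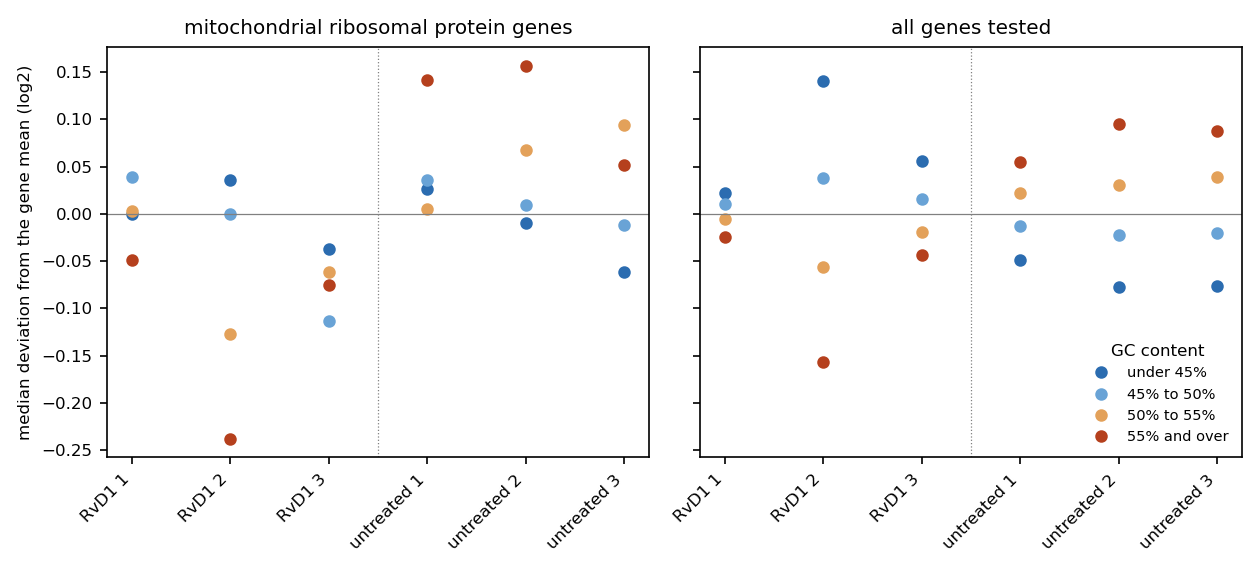
Median deviation of each library from the gene means (log2) in 4 ranges of GC content, RvD1 libraries left of untreated libraries, for the members (left panel) and all genes tested (right panel). In both panels genes with at least 55% GC lie lowest in RvD1 replicate 2, at -0.24 for the members and -0.16 for all genes.

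Several members share a start region or exon bases with a neighbour. A protein-coding gene started on the opposite strand within 1000 bases for 22 of 75 members (29.3%), against 12.2% of the 14202 protein-coding genes tested. Mrps11 and Mrpl46, named after their values were seen, lie beside each other on chromosome 7. They share 173 exon bases on opposite strands and had log2 fold changes of -0.25 and -0.21 (adjusted p = 0.207 and 0.214). Mrps12 shares its start region with Sars2, the mitochondrial seryl-tRNA synthetase gene, at 172 bases, and Sars2 had a log2 fold change of -0.29 (adjusted p = 0.409). The start of Mrps27 lies 81 bases from that of Ptcd2, which had -0.03 (adjusted p = 0.899). Exon bases were shared with a tested protein-coding gene in 23 members.

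In lists of other genes of mitochondrial translation, no gene was called. Of the 7 ribosomal proteins with other names, 0 passed, 2 were higher and 1 was lower at an unadjusted p under 0.05, with a median log2 fold change of -0.04. Mrp63 (mL63) had 7.79, 7.77 and 7.85 in RvD1 libraries, against 8.20, 8.13 and 8.14 in untreated libraries, and its groups did not overlap (-0.35; adjusted p = 0.061). Of 26 genes for ribosome assembly and rRNA modification, 0 passed, 3 were higher and 4 lower, with a median of -0.03. Mterfd2, which guides the rRNA methyltransferase Nsun4, had 7.40, 7.40 and 7.50 in RvD1 libraries, against 7.13, 7.14 and 6.95 in untreated libraries (0.36; adjusted p = 0.096). Among 13 translation factors, 0 passed, 1 was higher and 1 lower, with a median of 0.10. Tsfm, the nucleotide exchange factor of the elongation factor Tufm, had 7.64, 7.31 and 7.41 in RvD1 libraries, against 7.66, 7.91 and 7.94 in untreated libraries (-0.38; adjusted p = 0.13). Over all genes, 1.12% passed and 19.9% had an unadjusted p under 0.05.

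Genes that act before translation were not called either. Of 11 genes for mitochondrial transcription and mRNA stability, 0 passed, 1 was higher and 2 were lower at an unadjusted p under 0.05. Slirp, which with Lrpprc stabilizes mitochondrial mRNAs, had 8.49, 8.63 and 8.24 in RvD1 libraries, against 8.89, 8.77 and 8.89 in untreated libraries (-0.40; adjusted p = 0.0865). Its partner Lrpprc, named after its values were seen, had a log2 fold change of 0.14 (adjusted p = 0.239). Of 11 tested regulators of nuclear genes for mitochondria, 0 passed, 2 were higher and 3 lower. The higher ones were Gabpa, described below, and Gabpb2, and the lower ones Pprc1, Esrra and Ppargc1b. All but Gabpa were named after their values were seen. Gabpb2 was at 0.18 (0.01 with length and GC content corrected for), Pprc1 at -0.22 (-0.16), Esrra at -0.31 (-0.30) and Ppargc1b at -0.74 (-0.62). Their limma adjusted p-values before the correction were 0.133, 0.0903, 0.109 and 0.145. For comparison with both lists, 1.12% of all genes tested passed. At the same unadjusted threshold, 10.3% of all genes rose and 9.65% fell. Gabpa, the DNA-binding subunit of the factor that reads the ETS letters, had 10.12, 10.17 and 10.11 in RvD1 libraries, against 9.92, 9.93 and 9.86 in untreated libraries (0.23; adjusted p = 0.0759). Its log2 fold change was 0.04 (limma, adjusted p = 0.79) once length and GC content were corrected for. Nrf1 and Yy1, the genes of the factors behind the other letters, had log2 fold changes of -0.10 and 0.09 (adjusted p = 0.423 and 0.525). Nrf1 was at -0.20 and Yy1 at 0.03 with the same correction. Slirp, Mrp63, Tsfm and Mterfd2 were then at -0.50, -0.47, -0.36 and 0.32. The members with a match had median log2 fold changes of -0.11 for NRF1, -0.11 for ETS and -0.11 for YY1, against -0.07, -0.05 and -0.06 for members without that match, and these differences were not tested. The mRNAs and rRNAs of mitochondrial DNA itself were not found by symbol among the deposited genes, so they were not analysed.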

How the data were processed

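Poly-A RNA was sequenced from 6 libraries of mouse bone marrow-derived macrophages, 3 treated with RvD1 and 3 untreated, grouped by sample title and matched to columns by group and number. The submitters' processing notes name TopHat2 2.0.7 and mm10. No source used here gives the read counter, annotation release, strand setting or normalization software. The authors deposited 1 table of normalized values for 38087 genes, per the file headers. These were read as log2 normalized reads, because values ran from 0 to 17.43 and each library's antilogs came to 12.4 to 12.8 M. Between 49.6% and 51.6% of genes were listed at 0 in a library. Depth was estimated from the spacing of low values. Since only 40.7% to 51.3% of low values lay within 0.02 reads of a whole number, no count test was run.

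The 18899 genes above 0 in at least 3 libraries were tested with limma 3.58.1 in R 4.3.3, with treatment alone in the model, a variance prior that follows the mean level, two-sided tests and Benjamini-Hochberg adjustment over all genes at 0.05. The members and gene lists were chosen with earlier results of these data known. Lists were described by counts and medians, with no set test. Named genes were every member past the test, the 8 smallest p-values in each direction, the 5 highest and 5 lowest levels per kb, members with a distinct role, and from each list the gene with the smallest p where none passed. Transcript length, GC content and positions came from GENCODE M21 (mm10), which held 75 of the 76 genes, all but Mrpl33. The alternatives were no variance trend, a robust prior, no filter, a mean of at least 5, quantile normalization, median centring, an offset of 10, the replicate number as a block, a spline correction for length and GC content, and leaving out each library.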

Additional observations from a re-analysis of the deposited data

How the results depend on the processing

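Mrpl2 also passed with the robust prior, quantile normalization, median centring and the offset, at adjusted p-values of 0.0408, 0.0441, 0.0486 and 0.0477 (limma, Benjamini-Hochberg). The count of members past the limma test was 0 without the variance trend, 0 with no filter, 4 with a mean level of at least 5 (Mrpl2, Mrpl14, Mrps24 and Mrps27) and 0 after the length and GC correction. Over all genes these settings gave 1, 12, 464 and 30 calls, against 211 in the reported test. The mean filter tests fewer genes, and the cause of the other shifts was not tested. Leaving out 1 library at a time gave 0 to 1 members, with 1 member only without RvD1 replicate 1, and 0 to 451 calls over all genes. The log2 fold change of Mrpl2 was then -0.46 to -0.38. In the lists of other genes of mitochondrial gene expression, the count of genes past the test was 0 in the reported test, 1 with a mean of at least 5 and 0 to 1 with 1 library left out. A fit with the replicate number as a block gave 6 members and 7 list genes, with 1896 calls over all genes. Together with the length and GC correction it gave 2 members and 2 list genes, with 762 calls over all genes. Same-numbered libraries had correlations of their deviations of 0.088, -0.063 and 0.164, and not every library correlated best with its own number. These were taken over all 18899 genes tested, down to a mean level of 0.07. Noise of genes near 0 weighs on them, so they cannot decide whether libraries were paired. The summed macrophage and neutrophil markers were lowest in replicate 1 and highest in replicate 3 of both groups. The endothelial and stromal ones were highest in 1 and lowest in 2. The labels do not say what the numbers mean, and a shared batch was not tested further. The members' median log2 fold change stayed between -0.10 and -0.05 under all 16 alternatives. Of 512 values of the 32 named members under these alternatives, 490 had the sign of the reported value, and the 22 others were in 9 members. With 3 libraries a group, the median standard error of a member was 0.09 on the log2 scale, which limits what could be detected.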
